A study of Drosophila melanogaster with 6 samples.

Results

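The regions described here are the H3K9acS10ph peaks of Kc167 cells that lay on the main chromosome arms and overlapped no peak of H3K4me3, H3K4me1 or H3K27ac by 1 bp or more. They were selected on called peaks of these 4 lists, so their presence in the H3K9acS10ph list and absence from the others is the rule and not a result. There were 504 of them among 6873 H3K9acS10ph peaks on the arms (7.33%) and among 49322 peaks in the 6 lists of the series, and they are called unmarked H3K9acS10ph peaks below. Kc167 is a line derived from female late embryos of Drosophila melanogaster, and untreated cells in serum-free medium were used for every library. Chromatin was precipitated with antibodies to H3K4me3, H3K4me1, H3K27ac, JIL-1, H3K9acS10ph and H3K27acS28ph, with 1 library per antibody, no replicates and 1 list of called peaks per library. The read depth behind the lists is unknown. Intervals are therefore 95% intervals over peaks treated as independent. They cover counting error only, not the variation between chromatin preparations, and neighbouring peaks are not independent.

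H3K9acS10ph is histone H3 that carries an acetyl group on lysine 9 next to a phosphate on serine 10 of the same tail. JIL-1 is the kinase known to phosphorylate serine 10 in interphase chromatin of flies, and it is associated with active genes and an open chromosome structure. H3K27acS28ph is the matching double modification at lysine 27 and serine 28. H3K4me3 is known as a mark of active promoters, H3K4me1 of enhancers and the flanks of promoters, and H3K27ac of both when active. A peak that lacks these last 3 marks is thus not placed at either kind of element by them, although a list of called peaks shows only where signal passed the caller's threshold.

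The unmarked peaks were weak and narrow members of their list. The score that the authors' list gives each peak, whose meaning is not stated, reached 534 with a median of 77.2 and quartiles of 60.0 and 111. The other 6369 H3K9acS10ph arm peaks had a median score of 406, with quartiles of 135 and 1348. The lowest score in the whole list was 50.01, so the unmarked peaks stood close to the threshold of the list. Scores under 100 were found for 338 of the 504 unmarked peaks (67.1%) and for 1151 of the others (18.1%), and scores of 200 or more for 21 (4.17%) and 4183 (65.7%). By quartile of score over all H3K9acS10ph arm peaks, with limits at 112, 337 and 1245, the lowest quartile held 381 unmarked peaks, the next 121, the third 2 and the highest none. Unmarked peaks made up 22.2% of the lowest quartile and 7.04% of the next.

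Their median width was 1529 bp, with quartiles of 1278 and 1867 bp and a range of 917 to 6186 bp. The others had a median width of 2332 bp and reached 27409 bp. The narrowest quartile of the list, up to 1581 bp, held 279 unmarked peaks (55.4%), and 246 (48.8%) were in the lowest quartile of both score and width. Peaks on a single mark stood nearest to them. The 735 peaks on H3K4me3 alone had a median score of 102 and a median width of 1757 bp, and the 422 on H3K4me1 alone had medians of 96.5 and 1668 bp. The 3853 peaks on all 3 marks had medians of 990.1 and 2903 bp. The rule used the extent of the H3K9acS10ph peaks, so these values are given as a description and no test was made.

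**Figure D1:**
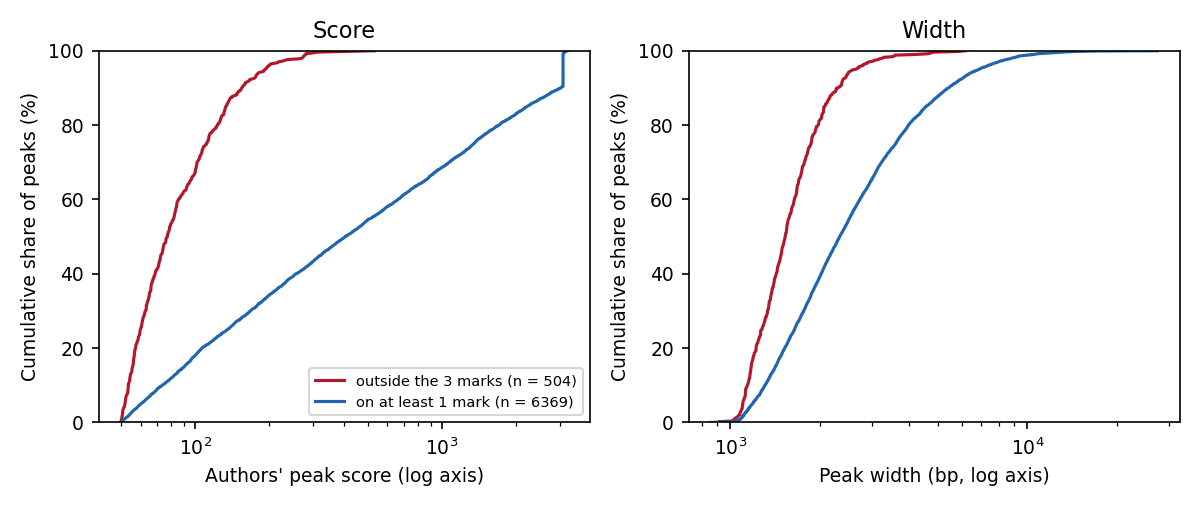
Cumulative share of H3K9acS10ph arm peaks (vertical axes, %) by the authors' peak score and by width in bp (horizontal log axes), for the 504 peaks outside the 3 marks (red) and the 6369 on at least 1 mark (blue). The red curves lie to the left of the blue ones, with median scores of 77.2 and 406 and median widths of 1529 and 2332 bp.

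JIL-1 was called at 152 of the 504 unmarked peaks, or 30.2% (95% Wilson interval 26.3 to 34.3), against 73.5% of all H3K9acS10ph arm peaks and 77.0% of the others (75.9 to 78.0). The difference from the others was -46.8 percentage points (95% Newcombe interval -50.8 to -42.5). The rule that chose the unmarked peaks did not use JIL-1. H3K27acS28ph, also unused by the rule, was called at 36 unmarked peaks, or 7.14% (5.20 to 9.73), against 32.9% of all H3K9acS10ph arm peaks and 35.0% of the others, a difference of -27.8 points (-30.1 to -25.0). Both were present at 15 unmarked peaks (2.98%, against 30.0% of all), and neither at 331 (65.7%, 61.4 to 69.7, against 23.5% of all). These 331 peaks rested on the H3K9acS10ph list alone among the 6 lists.

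The share with JIL-1 differed with the marks a peak overlapped, and the unmarked peaks had the lowest share of the 8 combinations. It was 42.9% (38.3 to 47.7) on H3K4me1 alone and 44.2% (40.7 to 47.8) on H3K4me3 alone. It was 63.1% on H3K4me1 with H3K27ac, 65.6% on H3K4me3 with H3K4me1, 73.3% on H3K4me3 with H3K27ac and 91.3% on all 3 marks. On H3K27ac alone 11 of 15 peaks had JIL-1 (73.3%, 48.0 to 89.1). Unmarked peaks lay -12.7 points (-18.9 to -6.51) from peaks on H3K4me1 alone and -14.1 points (-19.3 to -8.60) from peaks on H3K4me3 alone, and both intervals excluded 0.

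H3K27acS28ph followed another order at the lower end. It was found at 2.61% of peaks on H3K4me1 alone (11 of 422, 1.46 to 4.61), at 7.14% of unmarked peaks and at 9.93% of peaks on H3K4me3 alone (7.97 to 12.3). Unmarked peaks exceeded those on H3K4me1 alone by 4.54 points (1.75 to 7.37). Against H3K4me3 alone the difference was -2.79 points (-5.86 to 0.456), which includes 0.

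**Figure D2:**
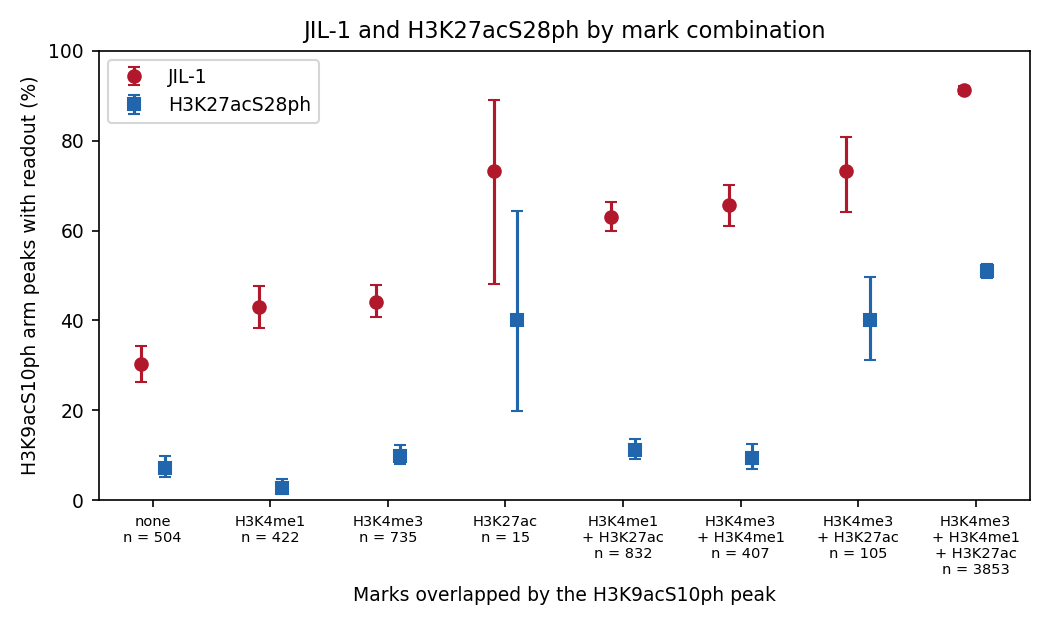
Share of H3K9acS10ph arm peaks with JIL-1 (red circles) and with H3K27acS28ph (blue squares), in %, for each combination of H3K4me3, H3K4me1 and H3K27ac overlapped, with 95% Wilson intervals and the number of peaks under each. JIL-1 is lowest at the 504 unmarked peaks (30.2%) and highest on all 3 marks (91.3%), while H3K27acS28ph is lowest on H3K4me1 alone (2.61%).

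Since score moved with membership, the shares were also compared within quartiles of score. The second quartile spans scores from 112 to 337. Scores were not matched further, so the 2 groups may still differ in score within a quartile. In the lowest quartile of score, JIL-1 was found at 110 of 381 unmarked peaks (28.9%, 24.5 to 33.6; 45.7% of all peaks in that quartile) and at 50.4% of the others there (47.8 to 53.1), a difference of -21.6 points (-26.7 to -16.1). In the second quartile it was found at 41 of 121 (33.9%, against 63.2% of all peaks there) and at 65.4% of the others, a difference of -31.5 points (-39.6 to -22.4). The difference was thus smaller than over all scores, and its interval still excluded 0. Within the lowest quartile, unmarked peaks also differed from those on H3K4me3 alone (38.8%) by -9.96 points (-16.4 to -3.37) and from those on H3K4me1 alone (39.7%) by -10.8 points (-18.4 to -3.24). In the narrowest quartile of width the JIL-1 shares were 30.1% and 57.2% (52.8% of all peaks there), a difference of -27.1 points (-32.8 to -20.9).

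The deficit of H3K27acS28ph was not detectable within the 2 lowest quartiles of score. In the lowest quartile it was present at 19 of 381 unmarked peaks (4.99%, against 6.75% of all peaks there) and at 7.25% of the others, a difference of -2.26 points (-4.59 to 0.694). In the second quartile the shares were 13.2% and 12.0%, a difference of 1.26 points (-3.93 to 8.60). The excess over peaks on H3K4me1 alone was 1.75 points in the lowest quartile (-1.75 to 4.85). By width the deficit held, with 7.53% and 13.7% in the narrowest quartile (-6.14 points, -9.31 to -2.08).

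**Figure D3:**
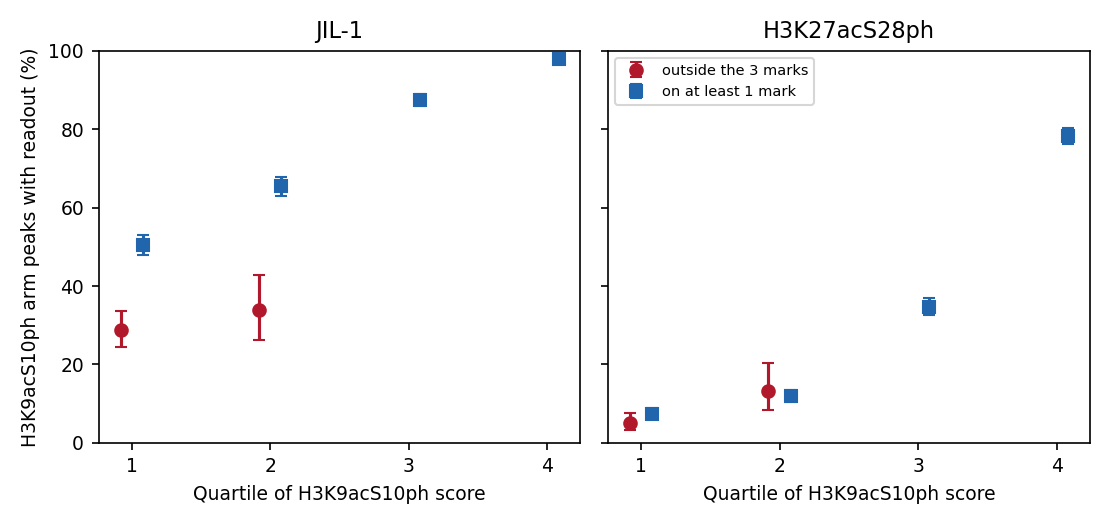
Share of H3K9acS10ph arm peaks with JIL-1 (left) and with H3K27acS28ph (right), in %, by quartile of H3K9acS10ph score, for peaks outside the 3 marks (red circles) and on at least 1 mark (blue squares), with 95% Wilson intervals. Quartiles 3 and 4 hold 2 and 0 peaks outside the marks and show none. For JIL-1 the groups stand apart in quartiles 1 and 2 (28.9% and 50.4%, 33.9% and 65.4%), and for H3K27acS28ph they overlap there.

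Of the 160 JIL-1 peaks at unmarked sites, 146 were outside the 3 marks themselves, against 3143 of all 12295 JIL-1 arm peaks. The rule favours this, since it chose sites that touch no mark. Beside those at the other H3K9acS10ph peaks, the JIL-1 peaks at unmarked sites were weak and narrow. Their median score was 80.1 (95% interval of the median 72.1 to 97.8) and their median width 822 bp, against 267 (256 to 279) and 1346 bp for JIL-1 peaks at the other H3K9acS10ph peaks. Among the 152 unmarked peaks with JIL-1, 40 (26.3%) had a JIL-1 peak at or above the median score of all JIL-1 arm peaks. Among JIL-1 peaks outside the marks the median score was 75.4 (70.7 to 88.1) for the 146 at unmarked H3K9acS10ph peaks and 79.6 (77.0 to 81.6) for the 2931 at no H3K9acS10ph peak, with overlapping intervals. The median widths of these were 798 bp (734 to 861) and 743 bp (731 to 759), also with overlapping intervals. JIL-1 covered a median of 50.5% of the width of the unmarked peaks that carried it, and the midpoints lay a median of 235 bp apart, within 500 bp in 113 of 152 cases. At the other H3K9acS10ph peaks with JIL-1 the medians were 64.0% and 427 bp. Unmarked peaks without JIL-1 were a median of 4096 bp from the nearest JIL-1 peak, and 109 of these 352 had one within 2000 bp.

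The overlap was small from the side of JIL-1, whose peaks outside the marks outnumbered the 504 unmarked H3K9acS10ph peaks. The rule and the list sizes partly set the shares that follow. Of the 3143 JIL-1 arm peaks outside the 3 marks, 146 (4.65%) overlapped an unmarked H3K9acS10ph peak and 212 (6.75%) overlapped any H3K9acS10ph peak, against 55.7% of all JIL-1 arm peaks. Of the 359 H3K27acS28ph arm peaks outside the marks, 36 (10.0%) overlapped an unmarked peak and 44 (12.3%) any H3K9acS10ph peak, against 84.2% of all H3K27acS28ph arm peaks. Counted in base pairs, JIL-1 peaks covered 15.3% of the unmarked H3K9acS10ph peaks and 3.78% of the arm sequence outside the 3 marks and outside H3K9acS10ph, a ratio of 4.04. H3K27acS28ph covered 4.67% and 1.21%, a ratio of 3.85. These ratios are descriptions of the lists and were not tested. The unmarked peaks took up 0.838 Mb, or 0.967% of the 86.7 Mb of arm sequence without the 3 marks.

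Of all 3223 H3K27acS28ph arm peaks, 359 lay outside the 3 marks. The 36 at unmarked sites all did, which the rule favours. They had a median score of 88.3 (70.4 to 131), against 148 (140.3 to 155) at the other H3K9acS10ph peaks, and 11 of the 36 unmarked peaks concerned had one at or above the median of that list. The 315 outside the marks at no H3K9acS10ph peak had a median score of 117 (93.7 to 136), whose interval overlaps that of the 36. The 36 sat close to the centre, with a median midpoint offset of 96.0 bp and a median of 77.0% of the width covered. At the other H3K9acS10ph peaks with H3K27acS28ph these medians were 418 bp and 51.3%. Peak widths, which differ between the groups, also limit the offsets. The unmarked peaks that carried H3K27acS28ph had a median H3K9acS10ph score of 109 (76.4 to 132), against 76.0 (72.1 to 79.5) for those without it. With and without JIL-1 the median scores were 80.0 (73.3 to 89.3) and 76.1 (71.5 to 80.3).

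H3K27acS28ph was present at 15 of 152 unmarked peaks with JIL-1 (9.87%) and at 21 of 352 without it (5.97%), a difference of 3.90 points (-0.925 to 10.0). At the other H3K9acS10ph peaks it was present at 41.7% with JIL-1 and 12.5% without, a difference of 29.2 points whose interval lay above 0. The difference at the others exceeded that at the unmarked peaks by 25.3 points (18.8 to 30.6). In the lowest quartile of score, however, the differences were 1.94 points at unmarked peaks (-2.59 to 8.41) and 3.61 points at the others (0.826 to 6.43). Unmarked minus others, this was -1.67 points (-7.00 to 5.37), which includes 0, against -25.3 points over all scores.

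Most unmarked peaks lay within a few kilobases of a mark. The gap to the nearest H3K4me3 peak had a median of 4726 bp, with quartiles of 1522 and 12468 bp and a maximum of 107229 bp. It was under 2000 bp for 146 peaks (29.0%), under 5000 bp for 264 (52.4%), and 10000 bp or more for 148 (29.4%). Median gaps were 6435 bp to H3K4me1 and 11578 bp to H3K27ac. The nearest of the 3 marks was H3K4me3 for 245 peaks, H3K4me1 for 221 and H3K27ac for 38, and its median distance was 3036 bp (2562 to 3430). All 3 marks were at least 10000 bp away for 98 peaks (19.4%). A gap under 5000 bp to both H3K4me3 and H3K4me1 was found for 158 peaks. Another 65 were that close to H3K4me3 but at least 10000 bp from H3K4me1, and 26 showed the opposite pattern. The 3 marks have lists of different length and width, which also sets these distances. The gaps were not compared with those of other places in arm sequence outside the marks. Nearness to a mark is thus not shown to be particular to these peaks.

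**Figure D4:**
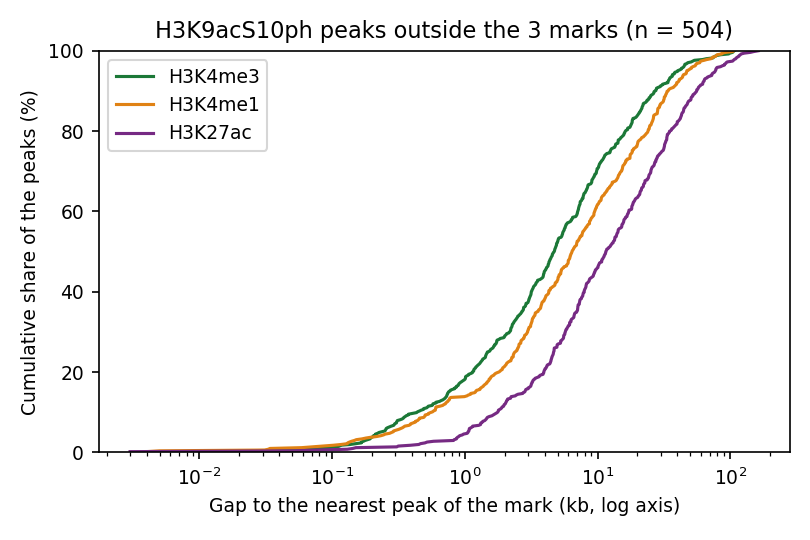
Cumulative share of the 504 unmarked H3K9acS10ph peaks (vertical axis, %) by the gap to the nearest H3K4me3, H3K4me1 or H3K27ac peak (horizontal log axis, kb). The H3K4me3 curve lies farthest left and the H3K27ac curve farthest right over most of the range, with median gaps of 4726, 6435 and 11578 bp.

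The share with JIL-1 did not fall steadily with distance from the marks. JIL-1 was present at 34 of 90 peaks under 500 bp from a mark (37.8%, 28.5 to 48.1) and at 33 of 105 between 500 and 2000 bp (31.4%, 23.3 to 40.8). The lowest share was that between 2000 and 5000 bp, with 30 of 128 (23.4%, 16.9 to 31.5). It was followed by 25 of 83 between 5000 and 10000 bp (30.1%, 21.3 to 40.7) and 30 of 98 at 10000 bp or more (30.6%, 22.4 to 40.3). The nearest class exceeded the lowest by 14.3 points (2.03 to 26.5), a pair chosen after the shares were seen and 1 of 10 possible pairs of classes. Peaks under 2000 bp and those farther away differed by 6.85 points (-1.34 to 15.2), an interval that includes 0. H3K27acS28ph was present at 2 of 90 peaks under 500 bp (2.22%, 0.612 to 7.74) and at 6 of 98 at 10000 bp or more (6.12%, 2.84 to 12.7). In the classes between, its shares were 8.57%, 9.38% and 8.43%, so it did not rise steadily with distance. The median score was 74.9 (66.7 to 88.9) in the nearest class and 78.9 (67.9 to 89.5) in the farthest. Very few peaks stood at the edge of the rule. There were 17 unmarked peaks with a mark at most 100 bp away, with a median score of 76.1 and JIL-1 at 4, and 12 other peaks overlapped by at most 100 bp, with a median score of 61.8 and JIL-1 at 5.

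**Figure D5:**
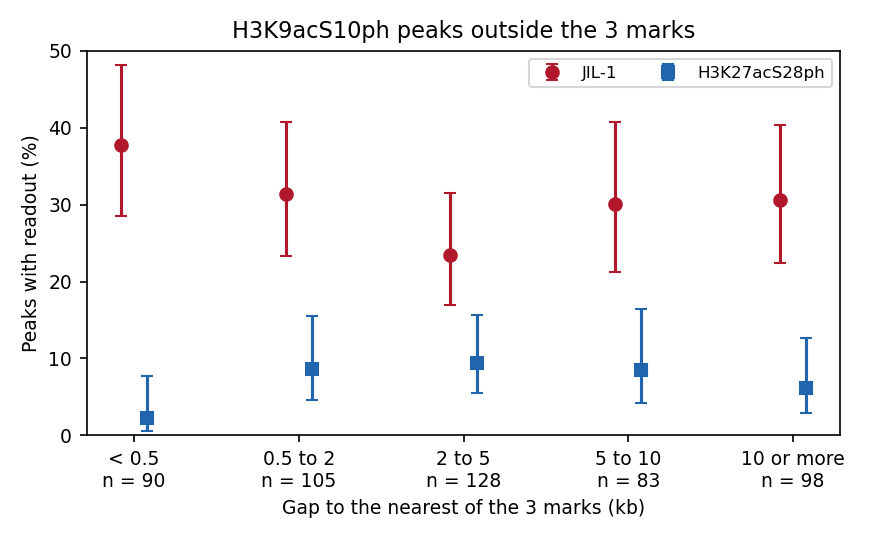
Share of unmarked H3K9acS10ph peaks with JIL-1 (red circles) and with H3K27acS28ph (blue squares), in %, by the gap to the nearest of the 3 marks in kb, with 95% Wilson intervals and the number of peaks in each class. JIL-1 is highest under 500 bp (37.8%), lowest between 2000 and 5000 bp (23.4%) and at 30.6% at 10000 bp or more.

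The share of H3K9acS10ph peaks that were unmarked had overlapping intervals on the 5 large arms. Unmarked peaks made up 6.49% of the H3K9acS10ph peaks on 2L (65 peaks, 5.12 to 8.18), 7.05% on 2R (102), 7.48% on 3L (109), 8.08% on 3R (132, 6.86 to 9.51) and 7.37% on X (96). Chromosome 4 had none among 30 peaks, which allows a share of up to 11.4% by the Wilson interval. X and the autosomal arms had 7.37% and 7.36%, with an interval of the difference of -1.48 to 1.68 points. Per Mb of arm sequence outside the marks there were 3.75 unmarked peaks on 2L, against 5.97 on X, 6.20 on 3L, 6.50 on 3R and 7.13 on 2R. All H3K9acS10ph peaks were also fewest on 2L among the large arms. There were 1002 on 2L, against 1303 on X, 1458 on 3L, 1633 on 3R and 1447 on 2R. The low density of unmarked peaks on 2L is thus not shown to be particular to them. The JIL-1 deficit was present on each of these 5 arms, from -44.6 points on 3L (-52.9 to -35.1) to -52.8 points on 2L (-61.8 to -40.9). JIL-1 was found at 33.3% of unmarked peaks on X and 29.4% on the autosomal arms, a difference of 3.92 points (-5.85 to 14.7).

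Some unmarked peaks lay near each other. The nearest H3K9acS10ph peak was another unmarked peak for 116 of 504 (23.0%), and for 287 of the 6369 others (4.51%). The median gap to that nearest peak was 4307 bp (3787 to 5212) for unmarked peaks and 1128 bp (1068 to 1197) for the others. With gaps of at most 20 kb allowed, 163 unmarked peaks (32.3%) fell into 71 groups of 2 or more, and 13 groups held 3 or more. Of all H3K9acS10ph arm peaks, 7.33% were unmarked. The rule favours unmarked neighbours, since it places these peaks in sequence free of the 3 marks. Such groups were not counted for all H3K9acS10ph peaks, so grouping is not shown to be particular to unmarked peaks. These counts were not tested.

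Coordinates below are 1-based with start and end included, made by adding 1 to the deposited starts. Scaffold names such as 2LHet belong to fly genome release 5, but no source used here states the build, so no genes or sequences are given for these places. The highest-scoring unmarked peak, at 3R from 19129491 to 19132539, had a score of 534, overlapped both JIL-1 (score 232) and H3K27acS28ph (score 111), and lay 3.03 kb from H3K4me3. It was followed by a peak on X from 18904756 to 18907579 with a score of 396. This peak had neither JIL-1 nor H3K27acS28ph and was 99.4 kb from H3K4me3, 31.7 kb from H3K4me1, 117 kb from H3K27ac and 14.7 kb from JIL-1. The third, on 3L from 4512168 to 4515200, scored 308 and carried both. The next, on X from 12973850 to 12977422, scored 299 and carried JIL-1 alone of the pair. The fifth, on 2R from 11120131 to 11122652, scored 281 and carried neither. Of these 5 peaks, 3 carried JIL-1 and 2 carried H3K27acS28ph. The shares were 30.2% and 7.14% among all unmarked peaks, and 73.5% and 32.9% among all H3K9acS10ph arm peaks. A difference for so few peaks was not tested.

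A further 3 peaks completed the 5 highest-scoring ones with both JIL-1 and H3K27acS28ph. One was on 3R from 693874 to 695294, with a score of 280.4. The others were on X, one from 21203843 to 21205404 with a score of 226 and one from 18582800 to 18584994 with a score of 144, and these lay 0.914 and 0.740 kb from H3K4me3. In these 5 peaks the JIL-1 scores ran from 55.0 to 232 and the H3K27acS28ph scores from 63.2 to 111.

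The widest unmarked peak, on 2R from 8895182 to 8901367, was 6186 bp wide and scored 166. It belonged to a group of 3 within 26.1 kb, from 8877775 to 8903904, and all 3 carried JIL-1. The strongest JIL-1 peak at any unmarked peak lay in this group, from 8901951 to 8903967, with a JIL-1 score of 3024. It ranked 32 among the 3143 JIL-1 peaks outside the marks. A second JIL-1 peak there, from 8877875 to 8880008, scored 1819. The H3K9acS10ph score at the former was 85.2, the lowest of the group. This group was singled out after its JIL-1 values were seen.

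The other 4 of the 5 widest peaks carried neither JIL-1 nor H3K27acS28ph. They lay on 2L from 1331209 to 1337051 (5843 bp), on 2L from 1316279 to 1321021 (4743 bp), on 3R from 19160592 to 19165328 (4737 bp) and on 2L from 714600 to 719233 (4634 bp). The first pair belonged to the largest group, 6 unmarked peaks on 2L from 1278840 to 1337051, and a group of 4 lay just before it, from 1227789 to 1246931. None of these 10 peaks overlapped JIL-1, which 30.2% of all unmarked peaks did. Each of the other groups of 4 had JIL-1 at 1 or 2 of its peaks. In each of the 2 groups just described 1 peak overlapped H3K27acS28ph, against 7.14% of all unmarked peaks. These counts were not tested. In the larger group JIL-1 was 3.74 to 22.6 kb away, H3K4me1 24.5 to 77.6 kb and H3K27ac 93.1 to 121 kb, while H3K4me3 was within 0.185 to 5.79 kb. In the smaller group H3K4me3 was 0.489 to 9.91 kb away and H3K4me1 26.6 to 43.8 kb.

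The unmarked peaks farthest from H3K4me3 were small, apart from the X peak of score 396 described above. The farthest, on 2L from 14847514 to 14848543, was 107 kb away and scored 60.8, without JIL-1 or H3K27acS28ph. The next were neighbours on X. The peak from 14367334 to 14368498 (score 95.7) overlapped JIL-1, and the peak from 14368706 to 14370069 (score 101) overlapped H3K27acS28ph instead, both over 100 kb from each of the 3 marks. Another, on 2R from 15853284 to 15854633, was 97.2 kb from H3K4me3 and overlapped a JIL-1 peak of score 50.3.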

How the data were processed

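The series has 6 ChIP-seq libraries. Bowtie 0.12.5 is named as aligner in the submitters' processing notes. The authors deposited 1 list of peaks per library, with MACS peak names and a score for each peak. The meaning of the score, the settings of the peak caller, the control and the build are not stated in the labels or files. Scores were used only within a list. The deposited start and end columns are another kind of value, positions in bp, and were read as BED intervals, with starts counted from 0. Printed starts have 1 added. The lists give no depth. Of the H3K9acS10ph peaks, 45 off the arms were left out. Overlap meant at least 1 bp. Shares have 95% Wilson intervals, differences 95% Newcombe intervals, called when they excluded 0, and medians exact binomial intervals. The 39 differences were not adjusted for their number. The largest peak end on each arm stood for its length. Named regions were the 5 highest-scoring, 5 widest and 5 farthest from H3K4me3, and the 5 highest-scoring with JIL-1 and H3K27acS28ph. The members and comparisons were chosen with earlier results of these data known. Procedures were tested on simulated data. Python 3.11.15 was used, with scipy 1.17.1, numpy 2.4.6, pandas 2.3.3 and matplotlib 3.10.9.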

Additional observations from a re-analysis of the deposited data

How the results depend on the processing

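There were 100 values recomputed under 11 alternative settings for 11 results. Only the differences among them have a direction, and none of these changed it. Counts, shares and medians have no direction to change. Chromosome 4 held no unmarked peaks, so the setting without it could change little. The JIL-1 difference in the lowest score quartile was -27.1 points by width quartile and -19.8 points in the lowest quartile of both. Results that moved are grouped by setting. In the upper 50% of H3K9acS10ph peaks by score 2 unmarked peaks were left, each share 50%, with medians of 2936 bp for width, 465 for score, 51226 bp to H3K4me3 and 232 for JIL-1 score. The H3K27acS28ph difference (-6.48 points) and the JIL-1 difference in the lowest quartile (-33.4 points) then had intervals that included 0, with only 2 peaks in the group. With the upper 50% of the JIL-1 and H3K27acS28ph peaks the shares were 7.94% and 2.18%, and the JIL-1 median score was 258. With the upper 50% of the 3 marks there were 1429 unmarked peaks, 38.1% with JIL-1, and medians of 1595 bp, 88.3 for score, 10513 bp to H3K4me3 and 116 for JIL-1 score. With 1000 bp windows there were 1031, with medians of 100.2 for score, 3324 bp to H3K4me3 and 127 for JIL-1 score. A gap of at least 500 bp gave a median of 6333 bp to H3K4me3, and one of 2000 bp left 309 peaks with a median of 8382 bp, as those settings require greater distances. For the other moves the cause was not tested. The comparisons with peaks on a single mark and between 2 distance classes were added after the data were seen. No paired analysis was possible because each antibody had 1 library. Weak peaks near the threshold limit what a missing JIL-1 or H3K27acS28ph call shows.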

Other observations

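Off the arms, 7 of 45 H3K9acS10ph peaks overlapped none of the 3 marks (15.6%). They lay on U (3), 3RHet (3) and 2RHet (1). JIL-1 overlapped 1 of them and H3K27acS28ph overlapped 2. The shares over all 45 off-arm peaks are not given here, so these counts cannot be compared. The lists also differ off the arms. On the arms lay 12295 of 12417 JIL-1 peaks but 3223 of 5634 H3K27acS28ph peaks.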
